A study of Mus musculus with 14 samples.

Results

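The degradome of mouse embryonic stem cells (ESCs) was compared between cells that had lost Dicer and control cells of the same line. Degradome-seq ligates an RNA linker to polyA RNA that carries a 5′ monophosphate (5′P), so that each read begins at the 5′ end of an RNA fragment. A pile-up site is a position on 1 strand where many reads begin. All 4666 pile-up sites of the deposited Dicer table were used, out of 5990 sites in the Dicer and Drosha tables together, of which 2595 are in both. They were measured in 4 of the 14 samples of the series.

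The series asks which RNAs are cut by Drosha in ESCs, and which of those cuts depend on mature miRNAs and not on Drosha itself. The other 10 samples are of Drosha fl/fl Gt(ROSA)26SorCreERT2 ESCs, untreated or given 100 nM 4-hydroxytamoxifen for 72 h and then kept for 48 h without it. They comprise 4 degradome libraries, used here for contrast, and 6 RNA-seq libraries, which were not used here. No RNA-seq of the Dicer line was analysed here, so a change at a site cannot be told apart from a change in the amount of its transcript.

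The control cells were Dicer fl/fl ESCs that received a retrovirus carrying GFP, and the Dicer-deficient cells received a GFP-Cre retrovirus that deletes the floxed alleles. Each group has 2 libraries. In both groups GFP+ cells were sorted on day 3 after transduction and grown for another 2 days, so both had been infected, sorted and cultured alike. The ESCs were derived from blastocysts and grown on inactivated mouse fibroblast feeders. Any cell that carried GFP but kept a Dicer allele stays in the Dicer-deficient group. In bulk libraries, fewer fragments in each cell and fragments in fewer cells cannot be told apart.

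The authors picked the sites in control libraries with a classifier, so a site that arose only in Dicer-deficient cells need not be in the table. A site had to pass in both control libraries, which can favour decreases among low sites, and this was not tested. The table has no site in Dicer1 or Drosha, and the deletion could not be checked in these values. The authors reported loss of miRNA expression after Dicer1 was inactivated, measured by qRT-PCR. Of the pluripotency genes listed, Nanog, Esrrb, Fgf4 and Zfp42 had sites. Of the fibroblast markers only Vim had one, at 2.00 and 1.37 RPM in control and 1.52 and 2.08 RPM in Dicer-deficient libraries (RPM, the reads at a site scaled to a fixed total of mapped reads, is the unit of all values below).

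Drosha and Dicer are RNase III enzymes that act in turn. Drosha, with its partner Dgcr8, cuts the hairpin of a primary miRNA transcript and leaves a polyadenylated 3′ flank with a 5′P, which Degradome-seq captures. Dicer then cuts the released hairpin to a miRNA duplex of which 1 strand is loaded into an Argonaute protein. Argonaute2 can slice an mRNA that pairs almost completely with its miRNA, opposite bases 10 and 11 of the miRNA. A cut by Drosha therefore does not need Dicer, whereas slicing by a miRNA does.

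Sequences from GRCm38 show what a site at a miRNA gene looks like. The lines below give 30 bases around the sites of the miRNA genes named most often here, on the strand of the gene, with the fragment from the site on in capitals.

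Mir294, chr7:3220691-3220720 (+): aaagtgcttcccttttgtgtgtTGCCATGT
Mir92-1, chr14:115044476-115044505 (+): tattgcacttgtcccggcctgtTGAGTTTG
Mir34a, chr4:150068517-150068546 (+): aatcagcaagtatactgccctaGAAGTGCT
Mir370, chr12:109618305-109618334 (+): gcctgctggggtggaacctggtTTGTCTGT
Mir496a, chr12:109739165-109739194 (+): tgagtattacatggccaatctcCTTTCGGC
Mir410, chr12:109743763-109743792 (+): gaatataacacagatggcctgtTTTCAATA

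The mature miRNAs in RefSeq that end at 5 of these sites follow, with the seed (bases 2 to 8) in capitals. At the Mir34a site the strand that ends there is the 3′ arm, for which no line is given.

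mmu-miR-294-3p: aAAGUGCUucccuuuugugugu
mmu-miR-92a-3p: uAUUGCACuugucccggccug
mmu-miR-370-3p: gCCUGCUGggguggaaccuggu
mmu-miR-496a-3p: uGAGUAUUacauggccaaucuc
mmu-miR-410-3p: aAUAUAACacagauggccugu

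Of the 80 sites in miRNA exons, which lie in 75 genes, 75 have a mature miRNA of RefSeq within 120 nt on the same strand. The site lay within 2 nt of the base after the 3′ end of a mature miRNA at 62 of these, and exactly on that base at 46. The fragments captured at most miRNA genes thus begin directly after a mature miRNA. At Mir147 the nearest such end listed was that of miR-147-5p, 34 nt before the site. Whether an unlisted strand of Mir147 ends at the site was not tested.

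Between 29598724 and 34547609 reads per library lay behind the values, and 3 reads, taken as the floor, corresponded to 0.0868 to 0.101 RPM. The sites took 30.1% and 29.2% of the reads in control and 23.1% and 23.4% in Dicer-deficient libraries. Between 10 and 23 sites per library were at or under the floor. Control library 1 stood above control library 2, and Dicer-deficient library 1 above library 2, mainly at linker-like sites. These are 813 sites where the 3 genome bases before the site are TCT, the last bases of the linker. They are marked as such below, and the part of this sequence match in their changes was not tested. The first 30 bases occur only once in the genome at 2552 sites.

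No single site was called at a false discovery rate (FDR) under 0.05 and a log2 fold change beyond 1.5 either way by limma, which compared log2 of RPM plus 0.1. On that scale the change of a site near the floor is understated. At an unadjusted p under 0.05, 60 sites (1.29%) lay under −1.5 and 54 (1.16%) over 1.5. The median of all 4666 changes was −0.12 on the log2 scale, and trimmed-mean scaling of the libraries moved it by over 0.1, to 0.01. Both Dicer-deficient libraries were below both control libraries at 1279 sites (27.4%) and above both at 785 (16.8%). Past the fold threshold as well there were 66 such sites (1.41%) lower and 62 (1.33%) higher. Counts below are given beside these shares. With 2 libraries a group, an exact permutation test of 1 value cannot go below p = 0.333.

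Summed over the sites of each gene named by the authors, 4 of 723 genes were called, 1 decreased (0.138%) and 3 increased (0.415%), each at FDR = 0.0474 by limma. The decreased gene was Plekhm1, an adaptor for the fusion of lysosomes with autophagosomes. The increased genes were Rian, a non-coding RNA that hosts snoRNAs in the imprinted Dlk1-Dio3 region, Rassf1, a scaffold protein of the Ras association family, and the gene model Gm45297. Each has 1 site in these sums. A site within a snoRNA counts for the snoRNA where the authors name it, as within Rian, and otherwise for its host. When such sites were also summed into every gene they name, no gene was called and Rian, with 5 sites, had 120.1 and 64.5 RPM in control and 151.8 and 126.6 RPM in Dicer-deficient libraries (0.65, FDR = 0.285 by limma). Nor was any gene called when either control library was left out, and the FDR of all 4 crossed the threshold among the settings tried. At any size of change, 296 genes (40.9%) were lower and 103 (14.2%) higher with no overlap between groups, and the median gene was at −0.30.

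The Plekhm1 site had 2.58 and 1.22 RPM in control and 0.101 and 0.122 RPM in Dicer-deficient libraries. Both deficient libraries were near the floor, with 7 reads in all against 131 in control. The change was −3.15 (standard error 0.68 for the site), the largest decrease among all sites. Counted as reads, the site was 16.9-fold lower (95% exact interval 7.99 to 43.0, which covers counting error only). In the Drosha line the same site changed by −2.72 (FDR = 2.7e-04 by limma). The difference between the lines was −0.43 (FDR = 0.767).

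The Plekhm1 site lies in the 3′ UTR on chromosome 11 (position 103366173, minus strand of GRCm38). It is opposite the slicing position of miR-106b-5p. The mRNA window and the miRNAs of the family are shown because the pairing sets this site apart from the other exonic sites. In the mRNA, capitals mark the fragment from the site on, and in the miRNAs they mark the seed.

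Plekhm1, chr11:103366164-103366186 (-): gcaccagcactgtCAGCACTTTG
mmu-miR-106b-5p: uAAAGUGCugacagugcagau
mmu-miR-106a-5p: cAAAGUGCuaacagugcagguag
mmu-miR-17-5p: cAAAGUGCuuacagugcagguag
mmu-miR-20a-5p: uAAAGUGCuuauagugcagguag
mmu-miR-93-5p: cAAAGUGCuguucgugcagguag

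With positions counted from the 5′ end of the miRNA, and the miRNA base written first, miR-106b-5p fails to pair at A18A and A20C only between bases 2 and 20. The other members shown pair over all 7 seed bases too. However, miR-17-5p has U10C and A18A, miR-106a-5p has A10C and A18A, and miR-93-5p has U11U, U12G, C13U and A18A. Of these genes only Mir106b has a site of its own in the table. It had 17.0 and 8.66 RPM in control and 11.2 and 7.21 RPM in Dicer-deficient libraries, so the groups overlapped.

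All sites in exons on the strand of the gene were searched in the same way against 130 mature miRNAs of 70 miRNA genes that have a site in the table. A mismatch cost 1 and a G:U pair 0.5, bases 9 to 11 had to pair, and a total of at most 4 was accepted. The Plekhm1 site was the only one of 679 such sites (0.147%) that paired. At positions 100 nt upstream of the same sites 0 paired, and of the 3907 other sites 1 did. At a limit of 5 the Usp21 site joined it, with miR-451a at 4.5 and a log2 fold change of 0.58 (standard error 0.61). At a limit of 6, 8 exonic sites paired against 6 upstream positions. A pairing is a match of letters and was not measured as slicing.

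**Figure D1:**
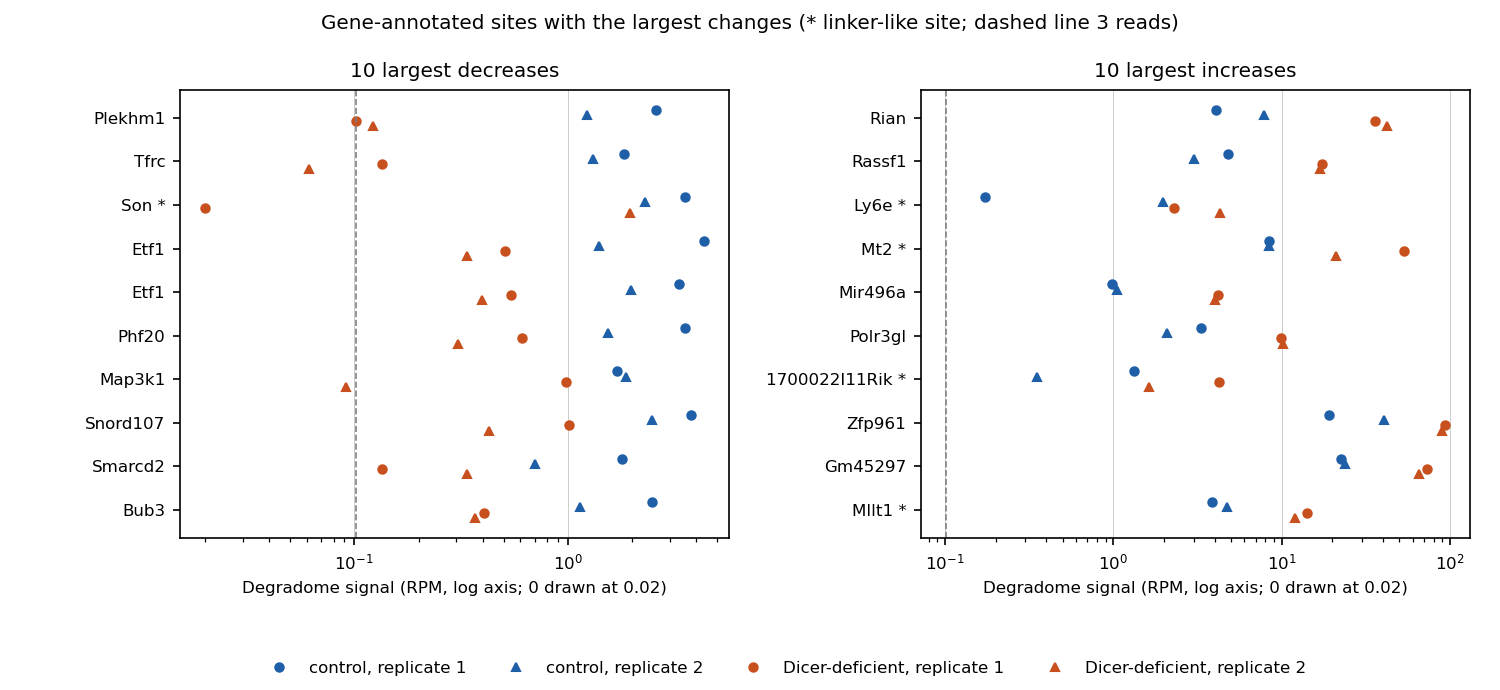
Degradome signal in RPM (log axis) in each library at the 10 gene-annotated sites with the largest decrease and the 10 with the largest increase whose groups do not overlap. Circles are replicate 1 and triangles replicate 2, blue for control and orange for Dicer-deficient, asterisks mark linker-like sites, and the dashed line marks 3 reads. Plekhm1 falls from 2.58 and 1.22 RPM to the floor, while Rian rises from 4.05 and 7.84 RPM to 35.9 and 42.1 RPM.

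The second largest decrease among gene-annotated sites was at Tfrc, the transferrin receptor that takes up iron. Its site in the 5′ UTR (chromosome 16, 32608983) had 1.82 and 1.31 RPM in control and 0.135 and 0.0611 RPM in Dicer-deficient libraries. The groups lay far apart, with 108 reads against 6, and the change was −3.08 (standard error 0.67). Both Dicer-deficient libraries were near the floor of 3 reads, with 4 and 2 reads. The change at this site lay between −3.35 and −1.22 over the settings tried. The 2 other Tfrc sites, both in the 3′ UTR, went different ways. The site at 32631596 had 6.22 and 14.5 RPM in control and 5.61 and 3.97 RPM in Dicer-deficient libraries (−0.99), and the site at 32631634 had 1.77 and 3.29 RPM against 4.56 and 3.51 RPM (0.71).

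The other decreases at gene-annotated sites past the fold threshold were in genes of diverse roles. Etf1, which encodes the release factor that ends translation, had 2 such sites. The site in its coding sequence (chromosome 18, 34931647) had 4.34 and 1.40 RPM in control and 0.507 and 0.336 RPM in Dicer-deficient libraries (−2.33, standard error 0.67). The site in its 5′ UTR had 3.30 and 1.98 RPM against 0.541 and 0.397 RPM (−2.24, standard error 0.52). Summed, Etf1 changed by −2.41 (standard error 0.49, FDR = 0.0790 by limma), the largest decrease of a gene with 2 or more sites.

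Phf20, a subunit of a histone acetyltransferase complex, had 3.53 and 1.55 RPM in control and 0.608 and 0.306 RPM in Dicer-deficient libraries at its 3′ UTR site (−2.19). The first bases of that site occur 2 times in the genome. Smarcd2, a subunit of SWI/SNF remodelling complexes, had 1.80 and 0.699 RPM against 0.135 and 0.336 RPM (−1.94). Bub3, of the spindle checkpoint, had 2.49 and 1.14 RPM against 0.405 and 0.367 RPM (−1.88). In each of these genes both control libraries were higher, and control library 1 was the highest.

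At Map3k1, a kinase of stress signalling, and Son, a splicing cofactor, the Dicer-deficient libraries differed widely from each other. Map3k1 had 1.71 and 1.87 RPM in control and 0.980 and 0.0916 RPM in Dicer-deficient libraries (−2.05, standard error 0.88). The linker-like Son site had 3.53 and 2.30 RPM against 0 and 1.96 RPM (−2.70, standard error 1.33). The 2 sites of the C/D box snoRNA Snord107, 1 nt apart, had log2 fold changes of −2.04 and −1.79. The Drosha line also had lower values at the Etf1 coding site (−2.12), Phf20 (−3.14), Bub3 (−1.57) and the Snord107 site at −2.04 (−2.4). The FDR of the difference between the lines was at least 0.407 at each of these by limma. Smarcd2, Map3k1, Son and the 5′ UTR sites of Etf1 and Tfrc had no value in the Drosha line.

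Odf2, a protein of centriole appendages, had the highest control signal among the exonic mRNA sites below −1.5. Its coding site (chr2:29914432-29914461, plus strand) reads as follows, with the fragment from the site on in capitals.

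Odf2: ggagtccatgcggggGCATTTGCAGGCACA

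This site had 43.8 and 22.9 RPM in control and 13.01 and 6.35 RPM in Dicer-deficient libraries (−1.79, standard error 0.49). A linker-like site in an earlier exon of Odf2 had 10.9 and 5.33 RPM against 8.68 and 4.52 RPM, with overlapping groups (−0.28). Npm1, the nucleolar protein nucleophosmin, had 144.6 and 108.2 RPM in control and 57.5 and 37.3 RPM in Dicer-deficient libraries (−1.43, standard error 0.35). This Npm1 site is a linker-like one and its sequence occurs 4 times in the genome. Ddx3x, an RNA helicase, changed by −1.34, Lrrc59 by −0.92 and the 2 sites of Cad by −0.51 and 0.02, none past the threshold.

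Rian had the largest increase of all sites. Its site had 4.05 and 7.84 RPM in control and 35.9 and 42.1 RPM in Dicer-deficient libraries. The change was 2.76 (standard error 0.36, FDR = 0.0474 by limma in the fit by gene). In the fit over sites the same values had a standard error of 0.41 (FDR = 0.465 by limma). The change is that of 1 site, and the 4 snoRNA sites within Rian changed by −0.05 to 1.01. Each Dicer-deficient library was thus over 4 times the higher control library. In the Drosha line the site changed by 1.22. The site lies on chromosome 12 at 109650669 in an exon of Rian where no snoRNA is annotated, and its sequence (chr12:109650654-109650683, plus strand) holds the letters TGATGA, in capitals with the rest of the fragment below. These letters occur in the C box of C/D snoRNAs.

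Rian: ggaggactgatgttgGATCAATGATGAATG

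The first 20 bases from the site hold TGATGA, on the strand of the site, at 125 of all 4666 sites (2.68%). They hold it at 77 of the 128 sites in snoRNA exons (60.2%).

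Rassf1 had 4.81 and 3.00 RPM in control and 17.3 and 16.8 RPM in Dicer-deficient libraries at its 3′ UTR site. Its summed change was 2.14 (standard error 0.34, FDR = 0.0474 by limma in the fit by gene). In the fit over sites the standard error was 0.37 (FDR = 0.465 by limma). Gm45297 had 22.3 and 23.6 RPM against 72.9 and 65.7 RPM (1.59, standard error 0.24 by gene and 0.29 by site). Its sequence occurs 491 times in the genome, so its reads cannot be placed. Polr3gl, a subunit of RNA polymerase III, had 3.33 and 2.07 RPM against 9.83 and 10.2 RPM at its coding site (1.89, standard error 0.39). Zfp961, a zinc finger gene, had 19.1 and 40.6 RPM against 93.2 and 89.1 RPM (1.71), at a sequence with 3 copies. The pair of Dicer-deficient libraries lay close together at these sites.

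Of the 10 largest increases, Mt2, Ly6e, 1700022I11Rik and Mllt1 were at linker-like sites. Mir496a, which was not, is described with its cluster below. Mt2, a metallothionein that binds zinc and copper, had 8.39 and 8.45 RPM in control and 52.8 and 20.9 RPM in Dicer-deficient libraries (1.97, standard error 0.48). Ly6e had 0.174 and 1.98 RPM against 2.30 and 4.31 RPM (2.11, standard error 0.96), and its control libraries differed more than the nearest libraries of the groups did. 1700022I11Rik changed by 1.77 and Mllt1, a reader of acetylated histones, by 1.58.

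Sites in miRNA exons moved in both directions. Of 80 sites, 31 (38.8%) were below and 17 (21.3%) above control with no overlap, against 27.4% and 16.8% of all sites, and the median log2 fold change was −0.10 against −0.12. The median was 0.02 after trimmed-mean scaling and lay between −0.25 and −0.04 as libraries were left out. Their signal summed to 2700 and 1985 RPM in control and 2477 and 2099 RPM in Dicer-deficient libraries (p = 1.00, exact permutation test, two-sided). The total therefore did not differ beyond the spread between the control libraries.

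The miR-290 cluster, which gives the most abundant miRNAs of ESCs, holds most of this signal. Its 7 sites summed to 2050 and 1359 RPM in control and 1832 and 1518 RPM in Dicer-deficient libraries, with the latter inside the range of the former. Mir295 had 1009 and 574.7 RPM against 819.3 and 665.2 RPM, Mir290a 348.3 and 215.0 RPM against 244.4 and 215.6 RPM, and Mir291a 202.9 and 153.1 RPM against 190.2 and 162.9 RPM. Of the 7 sites only Mir294 did not overlap, with 218.5 and 185.1 RPM against 301.5 and 243.7 RPM (0.43, standard error 0.29). The cluster's median was −0.04, and it became 0.20 without control library 1 and −0.20 without control library 2.

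The seeds of miR-291a-3p, miR-294-3p and miR-295-3p are the same, and the 3 mature miRNAs are shown to make this plain, with bases 2 to 8 in capitals.

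mmu-miR-291a-3p: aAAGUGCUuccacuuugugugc
mmu-miR-294-3p: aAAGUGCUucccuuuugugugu
mmu-miR-295-3p: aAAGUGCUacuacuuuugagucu

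The 3 sites of the miR-17-92 cluster, which drives proliferation, were all below control. Mir92-1 had 37.2 and 27.9 RPM in control and 18.5 and 15.3 RPM in Dicer-deficient libraries (−0.94, standard error 0.32). Mir19b-1 had 10.1 and 10.4 RPM against 7.77 and 6.29 RPM (−0.55), and Mir19a 2.26 and 1.37 RPM against 0.574 and 0.855 RPM (−1.21). The sum was 49.6 and 39.7 RPM against 26.8 and 22.4 RPM (p = 0.333, the smallest the exact permutation test can give), and the 3 sites stayed below when any library was left out. In the second copy of this family on the X chromosome, Mir92-2 (0.61) and Mir19b-2 (1.02) had positive values. These sites and those of the next paragraph were named after their values were seen.

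Outside the miR-290 cluster and the Dlk1-Dio3 region, 31 of 66 sites (47.0%) were below and 10 (15.2%) above control with no overlap, against 27.4% and 16.8% of all sites, or 36.4% and 18.2% after trimmed-mean scaling. The median was −0.35, and −0.14 without Dicer-deficient library 2. The cluster and the region left out had 0 sites below control. Leaving them out raised the share below from 38.8% and lowered the median from −0.10. Mir34a, a target of p53, had 13.1 and 13.1 RPM in control and 5.24 and 4.89 RPM in Dicer-deficient libraries (−1.36, standard error 0.32), and its replicates agreed closely. Mir29c had 18.2 and 15.2 RPM against 8.38 and 7.39 RPM (−1.07) and Mir32 had 32.5 and 22.3 RPM against 14.3 and 11.9 RPM (−1.04). Mir22 was at −1.02 and Mir7-1, with at most 1.04 RPM in any library, at −1.65. On the other side Mir147 had 4.08 and 5.22 RPM against 16.9 and 11.6 RPM (1.58, standard error 0.37). None of these was called.

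Of the 4 let-7 sites, 2 were below control and 0 above with no overlap, against 27.4% and 16.8% of all sites. All 4 were below without control library 1, 2 were below and 2 above without control library 2, and 1 was below after trimmed-mean scaling. Mirlet7d, with 6.92 and 9.85 RPM against 9.22 and 8.49 RPM, and Mirlet7a-1, with 4.197 and 4.78 RPM against 4.16 and 3.85 RPM, were the highest. Mir25 of the miR-106b-25 cluster had 3.62 and 3.41 RPM against 2.50 and 2.17 RPM (−0.57). At Gm24572, the annotated miRNA in the 5′ end of Dgcr8 where Drosha cuts the mRNA of its own partner, the values were 5.21 and 6.003 RPM in control and 3.99 and 4.61 RPM in Dicer-deficient libraries (−0.38, standard error 0.35). The other site in the miRNA machinery was a linker-like one in Tnrc6a, at 1.40.

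Among further miRNA genes, Mir24-1 was above control with 31.6 and 27.4 RPM against 44.8 and 38.9 RPM (0.50). Mir700 had 2.75 and 3.24 RPM against 4.19 and 5.13 RPM (0.62). Mir16-1 (−0.53), Mir671 (−0.55) and Mir5121 (−0.54) had negative values and Mir5099 (0.18) and Mir677 (−0.01) were near 0. None of these was called.

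**Figure D2:**
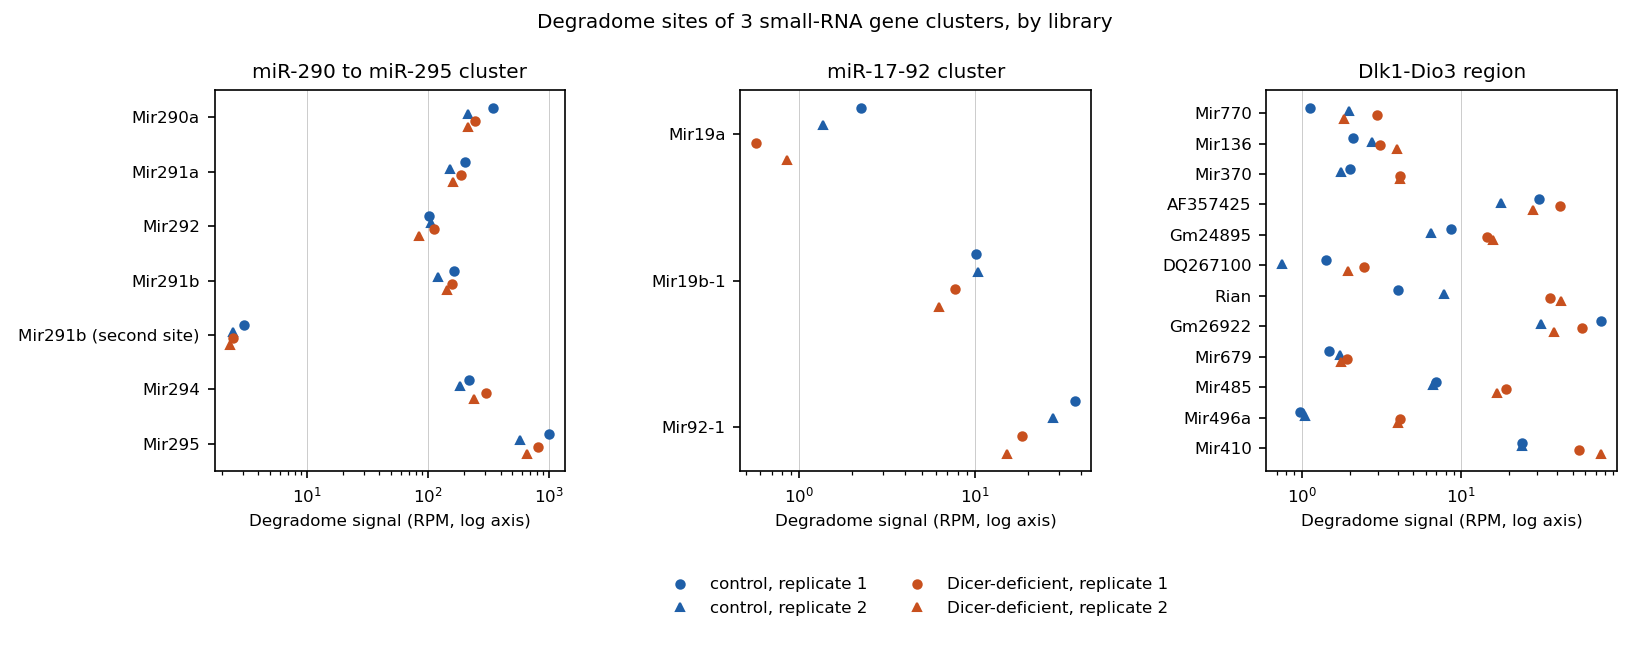
Degradome signal in RPM (log axis) at each site of the miR-290 cluster, the miR-17-92 cluster and the Dlk1-Dio3 region, with circles for replicate 1, triangles for replicate 2, blue for control and orange for Dicer-deficient libraries. The groups mix in the miR-290 cluster, the 3 sites of miR-17-92 are lower in both Dicer-deficient libraries, and 9 of 12 sites in the Dlk1-Dio3 region are higher in both.

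The sites of the imprinted Dlk1-Dio3 region on chromosome 12, where the maternal chromosome expresses Meg3, Rian and Mirg with many miRNAs and snoRNAs, were mostly higher. There are 12 sites in this region on the strand of these transcripts. They are 7 in miRNA genes, 4 in snoRNAs within Rian, and the Rian site above. Of these, 9 (75.0%) were above control with no overlap, against 16.8% of all sites, and 0 were below. Their median change was 1.00 on the log2 scale and ranged from 0.89 to 1.19 as libraries were left out in turn. Summed, the region had 158.9 and 104.5 RPM in control and 241.9 and 234.1 RPM in Dicer-deficient libraries (p = 0.333, the smallest possible in an exact permutation test).

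In the miRNA genes of the region, Mir410 had 24.1 and 23.98 RPM in control and 54.7 and 75.1 RPM in Dicer-deficient libraries (1.41, standard error 0.31). Mir496a had 0.984 and 1.05 RPM against 4.16 and 4.03 RPM (1.91, standard error 0.40). Mir370 had 2.03 and 1.78 RPM against 4.12 and 4.15 RPM (1.09, standard error 0.38). The control replicates lay within a narrow range at these sites, as they did at the linker-like Mir485 site, with 6.92 and 6.67 RPM against 19.1 and 16.7 RPM (1.38). Mir136 (0.52, linker-like), Mir770 (0.61) and Mir679 (0.19) had smaller values, and at Mir770 the groups overlapped. In the snoRNAs, Gm24895 had 8.68 and 6.50 RPM against 14.4 and 15.8 RPM (1.00) and DQ267100 1.42 and 0.758 RPM against 2.47 and 1.96 RPM (1.01). The groups overlapped at AF357425 (0.55) and at Gm26922, which had 75.4 and 31.5 RPM against 57.4 and 38.5 RPM.

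The same 12 sites had a median of −1.47 in the Drosha comparison, but did not move alike there. The sites in miRNA genes changed by −2.22 to −1.44, those in snoRNAs by −0.47 to −0.10 and the Rian site by 1.22. Over the 72 miRNA exon sites in both tables, the medians were −1.97 in the Drosha and −0.10 in the Dicer comparison. The difference between the comparisons was tested with an interaction term by limma. It was higher in the Dicer comparison at 18 of the 72 sites at FDR under 0.05, against 44 of 2595 shared sites (1.70%), and lower at 0, against 80 of 2595 (3.08%). The 18 include 6 sites of the miR-290 cluster, 4 of the Dlk1-Dio3 region and 8 of other miRNA genes. The count moved between 0 and 35 when 1 library was left out, and was 0 without Dicer-deficient library 1 or without any of the Drosha libraries.

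**Figure D3:**
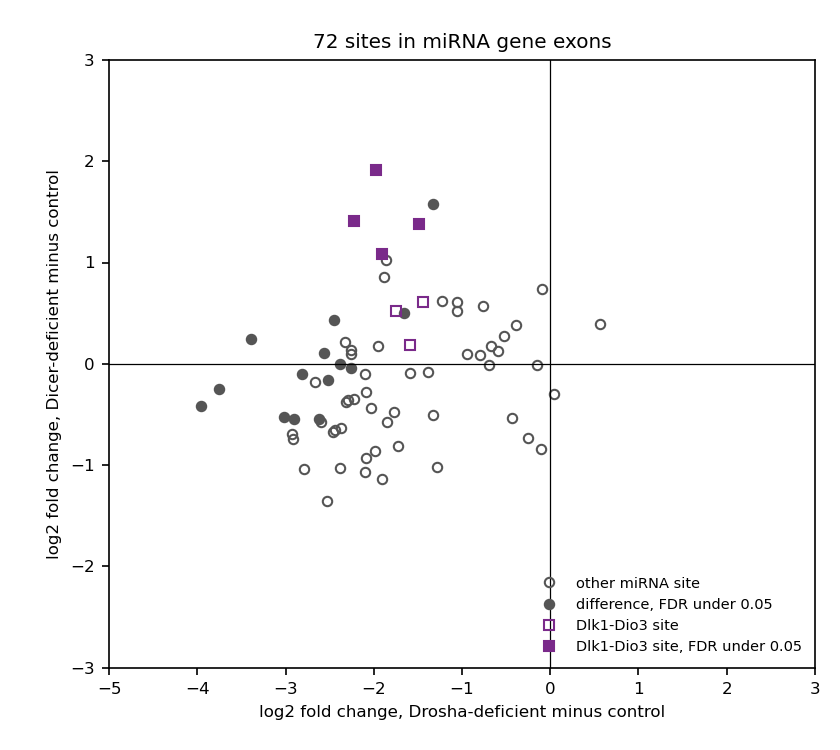
Log2 fold change at the 72 miRNA exon sites in both tables, in the Drosha comparison on the x axis and the Dicer comparison on the y axis, 1 point per site, squares for the Dlk1-Dio3 region and filled points where the difference has an FDR under 0.05. Almost all points lie left of 0 on the x axis, with a median of −1.97, while they spread around 0 on the y axis, with a median of −0.10.

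SnoRNA sites were more often below than above control. Box C/D snoRNAs guide the methylation of ribosomal RNA and are cut out of the introns of host genes. Of the 128 sites in snoRNA exons, 58 (45.3%) were below control with no overlap and 7 (5.47%) above, against 27.4% and 16.8% of all sites. The median was −0.42, and −0.29 after trimmed-mean scaling. It was −0.21 without control library 1, with 74 sites below and 23 above, −0.67 without control library 2 and −0.25 without Dicer-deficient library 2. The site lay within 5 nt of the annotated 5′ end of the snoRNA at 114 of them, and exactly there at 60. The 77 sites that hold the C box letters had a median of −0.42 with 33 below control, and the other 51 had a median of −0.44 with 25 below.

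The highest of these, Snord82, had 11960 and 7536 RPM in control and 5970 and 4814 RPM in Dicer-deficient libraries (−0.82, standard error 0.38). Gm24339 had 1013 and 925.2 RPM against 417.9 and 341.9 RPM (−1.36, standard error 0.29), and Gm23187 had 1481 and 1432 RPM against 912.2 and 941.3 RPM (−0.65). Replicates lay close together at both of these. Gm24339 changed by 0.18 in the Drosha line, and the difference of −1.53 between the lines passed the test (FDR = 0.0487 by limma). It was the only 1 of the 119 snoRNA exon sites in both tables to do so. Over these 119 sites the medians were −0.59 in the Drosha and −0.42 in the Dicer comparison. Snord82 changed by −0.98 in the Drosha line. Snord49a, with 1830 and 810.4 RPM against 1140 and 731.1 RPM, overlapped. The 7 sites above control were in Gm24895 and DQ267100 of the Dlk1-Dio3 region, in Snord14a, Snord96a and Snord99, and in 2 snoRNAs within Hspa8.

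Sites in exons of protein-coding genes, on the strand of the gene, were more often below than above control. Of 578 sites, 238 (41.2%) were below and 80 (13.8%) above with no overlap, against 27.4% and 16.8% of all sites, or 34.6% and 19.4% after trimmed-mean scaling. The median was −0.31, and −0.20 without Dicer-deficient library 2. In coding sequences 120 of 266 sites (45.1%) were below and 23 (8.65%) above (median −0.38, or −0.22 without Dicer-deficient library 2). In 5′ UTRs 51 of 107 (47.7%) were below and 11 (10.3%) above (−0.36). In 3′ UTRs the counts were nearly equal, 30 of 107 (28.0%) below and 29 (27.1%) above, with a median of −0.10 that became 0.02 after trimmed-mean scaling. By contrast 798 sites were antisense to such exons, 614 of them linker-like. Their median was 0.09, and it moved to 0.80 without control library 1 and to −0.62 without control library 2.

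**Figure D4:**
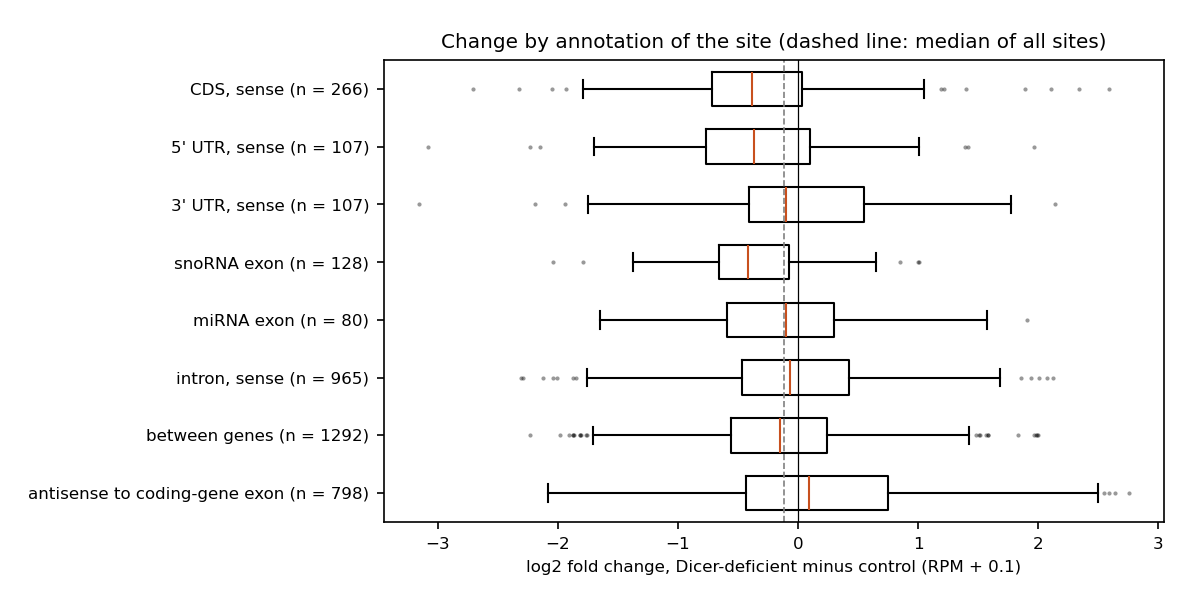
Log2 fold change (Dicer-deficient minus control, RPM plus 0.1) of the sites in each annotation class, with boxes for the quartiles, a line for the median, whiskers to 1.5 times the interquartile range and points beyond them. The dashed line is the median of all sites, −0.12, and the medians of coding sequence, 5′ UTR and snoRNA exons lie to its left, at −0.38, −0.36 and −0.42.

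Sites on the strand of ribosomal protein genes numbered 43, of which 18 lie in snoRNAs or other small RNAs within those genes. Of the 43, 15 (34.9%) were below control and 2 (4.65%) above with no overlap, against 27.4% and 16.8% of all sites. The median was −0.38, and it was −0.20 without Dicer-deficient library 2 and −0.21 without control library 1. Rpl4 had 175.8 and 179.5 RPM in control and 117.9 and 107.5 RPM in Dicer-deficient libraries (−0.66). Rpl3 had 158.9 and 88.1 RPM against 72.8 and 79.2 RPM (−0.64), whereas Rpl37 had 98.1 and 87.3 RPM against 104.0 and 94.3 RPM (0.10), with overlapping groups.

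The list of translation factors and abundant nucleolar proteins had 9 sites, of which 8 (88.9%) were below control and 0 above with no overlap, against 27.4% and 16.8% of all sites. The median was −0.72, or −0.40 without Dicer-deficient library 2. Eif4a2, a helicase of translation initiation, holds 5 of them, and the sites within 1 gene are not independent. Its highest site had 8.74 and 8.31 RPM in control and 5.14 and 5.10 RPM in Dicer-deficient libraries (−0.72, standard error 0.33). Of the others, Snord2 lies within Eif4a2 and Gm22988 within Eif4a1, and both are small RNAs.

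The 6 sites of pluripotency genes differed in direction, with 3 below control and 1 above with no overlap, against 27.4% and 16.8% of all sites. Esrrb, a nuclear receptor of the pluripotency network, had 184.9 and 182.1 RPM in control and 269.0 and 273.4 RPM in Dicer-deficient libraries at its 3′ UTR site (0.56, standard error 0.27). The replicates lay far closer together than the groups. The highest site of Nanog, linker-like and in the 3′ UTR, had 45.8 and 58.7 RPM against 34.8 and 30.2 RPM (−0.67). Fgf4 had 71.2 and 47.8 RPM against 50.1 and 47.2 RPM (−0.26) and Zfp42 4.46 and 5.63 RPM against 3.68 and 3.94 RPM (−0.39). No site lay in the listed G1/S regulators, histones, p53 targets, interferon response genes or genes named as mitochondrial.

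Among genes with 2 or more sites, the largest decreases of the summed signal after Etf1 were Snord107 (−1.89), Odf2 (−1.35), Rps18 (−1.20), which encodes a protein of the small ribosomal subunit, and Mrpl35 (−1.11), of the mitochondrial ribosome. Rps18 had 4.37 and 3.47 RPM in control and 1.62 and 1.65 RPM in Dicer-deficient libraries. The largest increases were Polr3gl (1.42), Taf15 (0.66), Hspa8 (0.55), Pdcd11 (0.53) and A330084C13Rik (0.48). All 3 sites summed as Hspa8 lie in snoRNAs within that gene. Taf15, an RNA-binding protein, had 64.6 and 63.3 RPM against 111.1 and 91.5 RPM. None of these 10 genes passed an FDR of 0.05 by limma.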

How the data were processed

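Degradome-seq was compared in 2 Dicer-deficient and 2 control libraries, with 4 libraries of the Drosha line for contrast. The authors trimmed the reads with Trimmomatic (version 0.38.0 in the submitters' processing notes), aligned them to GRCm38 with STAR, counted read starts at each position, and deposited RPM values at sites picked by a classifier. Their own columns of fold change, FDR and p-value were not used. Mapped reads were recovered from the steps of the RPM values.

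Log2(RPM + 0.1) was compared with limma (version 3.58.1, empirical Bayes with a mean-variance trend) over all 4666 sites, or over 723 genes, with Benjamini-Hochberg adjustment. Calls needed FDR under 0.05 and a log2 fold change beyond 1.5. The count test foreseen in the design was not run. The fit was tested on simulated counts that held no library effect, so that test could not show how differences between libraries bear on the calls. p-values measure only the spread between these libraries, which may be technical.

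Named were genes of the study's text, the 10 largest decreases and increases among gene-annotated sites of at least 1 RPM without overlap, 5 genes each way with 2 or more sites, miRNA-paired sites, the 10 highest sites, and at most 4 members per list. For the Dlk1-Dio3 region all 12 were given. Members, lists and definitions were chosen with earlier results of these data known. Sites were placed with the GRCm38 annotation and RefSeq miRNAs. Trimmed-mean factors were 1.19, 0.923, 1.04 and 0.876 for control 1 and 2 and Dicer-deficient 1 and 2.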

Additional observations from a re-analysis of the deposited data

Results flagged for a closer look

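At 18 named sites the log2 fold change differed between the Dicer and the Drosha comparison, by an interaction term at FDR under 0.05 in limma. At 17 of them it was higher in the Dicer comparison. In the Dlk1-Dio3 region the differences were 3.89 at Mir496a, 3.63 at Mir410, 3.00 at Mir370 and 2.87 at Mir485. In the miR-290 cluster they were 3.50 at Mir290a, 2.88 at Mir294, 2.71 at Mir292, 2.67 at Mir291b, 2.38 at Mir291a and 2.22 at Mir295. Among other miRNA genes they were 2.90 at Mir147, which was named after its values were seen, 2.50 at Mir16-1, 2.36 at Mir19b-1, 2.36 at Mirlet7a-1, 2.16 at Mir24-1 and 2.08 at Mir671. The linker-like site of the metallothionein Mt2 differed by 3.75. The snoRNA site Gm24339 was the only named one that was lower in the Dicer comparison, by −1.53. The test lost all of its calls when Dicer-deficient library 1 or any Drosha library was left out.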

How the results depend on the processing

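With 2 libraries a group, single libraries move many of these results. No site was called at other pseudocounts, with other scaling, with a fold threshold of 1, at 1 RPM or more, or without the trend, and 1 increased when linker-like sites were left out. At an unadjusted p the counts were 60 decreased and 54 increased. With each library left out, 0 to 1 sites were decreased and 0 to 13 increased, the upper values without Dicer-deficient library 2. The count tests planned with edgeR and DESeq2 were not run.

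Replicate numbers are shared between the groups, and the deviations of same-numbered libraries correlated at 0.53 over all sites (0.69 at linker-like sites, 0.24 elsewhere), which 2 pairs cannot establish as a pairing. Without a block 68 sites lay under −1.5 and 119 over 1.5 at any FDR. With a replicate block, 67 sites were decreased and 119 increased, so the FDR threshold excluded almost no site past the fold threshold. The Plekhm1 site (−3.15) was among the 67. By gene, 15 were decreased and 13 increased, and the lines differed at 386 sites lower and 934 higher in the Dicer comparison.

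Genes decreased and increased numbered 0 and 2 at a pseudocount of 1, 0 and 1 at 0.5, 0 and 3 after median centring, 0 and 0 after trimmed-mean (TMM) scaling, without a trend (an added setting), by the highest site of each gene or with each site summed into every gene it names (an added setting), 2 and 8 at 1 RPM or more, and 2 and 3 without linker-like sites. With each library left out the ranges were 0 to 6 and 0 to 5, with 6 decreased without Dicer-deficient library 1. The FDR lay between 2.8e-04 and 0.285 for Rian, 0.00245 and 0.215 for Rassf1, 0.00313 and 0.259 for Plekhm1, and 0.00589 and 0.259 for Gm45297 over these settings.

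The median over all sites lay between −0.33 (without control library 2) and 0.008 (without control library 1). The 66 lower and 62 higher sites past the fold threshold without overlap became 9 and 34 at a pseudocount of 1, and 26 lower at 0.5. The higher ones became 106 after TMM scaling, 41 without linker-like sites and 35 at sites with 1 genomic copy (an added setting). With each library left out they were 39 to 270 lower and 62 to 287 higher, the last without control library 1. The lines differed at 287 sites lower and 123 higher in the Dicer comparison after median centring, and at 0 to 243 and 0 to 726 with each library left out. At a pairing limit of 5, 2 exonic sites paired. After TMM scaling 23.3% of all sites were lower and 19.5% higher without overlap, against 37.3% and 38.7% without control library 1 and 53.3% and 29.0% without control library 2.

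Values near 0 changed sign. After TMM scaling these were the medians of 3′ UTRs (0.023), miRNA exons (0.024), the miR-290 cluster (0.088) and let-7 genes (0.005), and the values of Mir677 (0.11), Gm23130 (0.11), Gm26922 (0.08), Mirlet7f-1 (0.04), Mir291a (0.13), Mir292 (0.03), Mir295 (0.09) and a site without a gene on chromosome 12 (0.05). After median centring they were Mir677 (0.00) and Mir291a (0.01). With 1 library left out the ranges were −0.113 to 0.027 for the 3′ UTR median, −0.05 to 0.03 for Mir677, −0.44 to 0.38 for Gm23130, −1.0 to 0.17 for Snord49a, −0.68 to 0.58 for Gm26922, −0.33 to 0.17 for the chromosome 12 site, −0.15 to 0.35 for Mirlet7d, −0.80 to 0.63 for Mirlet7f-1, −0.33 to 0.05 for Gm10222, −0.16 to 0.35 for Vim, −0.79 to 0.23 for the Odf2 site at 29893062, −0.33 to 0.36 for the Cad site at 31072908, −0.92 to 0.05 for Mir106b, −0.55 to 0.03 for Fgf4, −0.60 to 0.09 for Mir290a, −0.21 to 0.20 for Mir291a, −0.32 to 0.11 for Mir292, −0.12 to 0.32 for Mir291b and −0.45 to 0.36 for Mir295. The cause was not tested. Over the sites, genes and lists named, 1422 of 1560 repeated values kept direction and side of the threshold or stayed within the replicate spread, 37 changed sign, 38 moved, 35 fell short of the threshold and 28 newly passed it.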

Other observations

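The 10 sites with the highest signal include 5 whose first 30 bases occur once in the genome, 4 that occur 2 times and 1, on chromosome 12, that occurs 330 times. Among them are 2 positions on chromosome 1 with no gene named, at 24615566 (129000 and 145100 RPM in control, 104200 and 121600 RPM in Dicer-deficient libraries, −0.28) and 24614812 (33170 and 36330 RPM against 18610 and 15660 RPM, −1.02). Gm28438 (−0.62) and Gm10222 (−0.14) lie beside them. Over the 30 bases from the site, 8 sites of the table are identical to the mitochondrial genome, and they summed to 171900 and 194100 RPM against 132100 and 148300 RPM. Most of this sum is the site at 24615566. Of the 8, 2 were below and 4 above control with no overlap, with a median of 0.21. The others of the 10 were CT010467.1 (−0.93), Snord82 (−0.82), Cep295 (−0.49) and sites without a gene on chromosomes 5 (−0.67), 12 (−0.08) and 17 (0.26).

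Short interspersed elements, B1 and B2, are abundant in mouse transcripts. The 12 bases held by most sites within their first 30 bases, on the strand of the site, were GAGATGGCTCAG, letters found in B2 elements, at 965 of 4666 sites (20.7%) in 472 distinct sequences. Among the sites without them the most common 12 bases were GGGCGTGGTGGC, letters found in B1 elements, at 508 sites (10.9%) in 300 distinct sequences. The sites of the 2 kinds went different ways. Of those with the B2 letters, 361 (37.4%) were below control and 68 (7.05%) above with no overlap, with a median of −0.37. Of those with the B1 letters, 59 (11.6%) were below and 216 (42.5%) above, with a median of 0.25, against 27.4% and 16.8% of all sites. At sequences with 1 genomic copy, 36 of 94 sites with the B2 letters were below and 6 above, and 8 of 81 with the B1 letters were below and 39 above. The medians shrank to −0.10 and 0.05 without control library 1 and grew to −0.74 and 0.46 without control library 2. At the 265 sites with the B1 letters in both tables, the median was 1.24 in the Drosha and 0.335 in the Dicer comparison. At the 412 such sites with the B2 letters it was −0.12 in the Drosha and −0.295 in the Dicer comparison. These motifs were chosen after the data were seen, and sites that share a sequence are not independent. The first 30 bases alone cannot place a read where they occur more than once in the genome.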
